A study of Mus musculus with 10 samples.

Results

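Of the 5077 REST peaks listed for the cortex of 3xTg mice, 1003 overlapped a peak of the WT list, lay inside a gene and stayed away from every gene start; these shared gene-body peaks are described here. They were chosen by measured peak calls together with the annotation. A 3xTg peak was taken when it overlapped any of the 3006 WT peaks by at least 1 base, when its summit, the base of highest signal, was more than 1 kb from every start site of the curated RefSeq transcripts of mm10, and when that summit lay inside the span of such a transcript. Of all 2489 shared 3xTg peaks, another 806 had their summit within 1 kb of a start site (shared promoter peaks) and 680 lay between genes (shared intergenic peaks). A further 1162 gene-body peaks were called in 3xTg mice alone. Peaks on chromosome Y were left out.

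The study mapped REST binding by chromatin immunoprecipitation and sequencing (ChIP-seq), with an antibody to the C-terminus of REST, in bulk cortex of female mice aged 11 months. 3xTg mice model amyloid and tau pathology through human transgenes for APP Swe and for tau with P301L, together with a further mutant allele placed by knock-in. WT mice carried none of these alleles, and the labels name no strain. Each genotype had 4 ChIP replicates, each a pool of 4 cortices, and 1 input library of sheared chromatin that had not been precipitated. The deposited files hold 1 peak list per genotype, made from all replicates together, so that each peak has 1 value per genotype, with no spread between replicates and no test of genotype. Fold enrichment, the signal at the summit over the local background, started at 8.50 in the 3xTg list and 6.0 in the WT list, so that the lists did not begin at the same level, and both began above the stated filter of 5. Read depth is not given in the peak lists, and the purity of the tissue cannot be read from them.

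REST is a zinc-finger repressor that silences neuronal genes in non-neuronal cells and also acts in mature neurons. It binds RE1, a bipartite element whose left and right parts are separated by a short spacer, and recruits Sin3 and CoREST complexes that carry histone deacetylases and demethylases. RE1 elements occur in promoters, in introns, where they can act at a distance from the gene start, and between genes.

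The clearest RE1 elements of the shared gene-body peaks are printed first, because they show the sequence that REST is known to bind in place inside introns. RE1 was searched as TCAGCACC, 2 unspecified bases and GGACAGC, on both strands, from 100 bases before to 100 bases after each 3xTg summit, and up to 3 mismatches in the 15 letters were accepted. The 5 elements without a mismatch in the peaks of highest fold enrichment come first, followed by 5 with 1 mismatch from peaks named for their fold enrichment or their gene list. Each run is from the mm10 genome sequence of RefSeq, read 5′ to 3′ on the strand of the element, with the left and right parts in capitals.
Erich1 (chr8:14072716-14072756, plus strand): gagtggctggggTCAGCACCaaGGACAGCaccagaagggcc
Myo18b (chr5:112718793-112718833, minus strand): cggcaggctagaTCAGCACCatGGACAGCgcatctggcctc
Vrk3 (chr7:44770184-44770224, plus strand): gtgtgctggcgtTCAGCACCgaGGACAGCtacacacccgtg
Carmil2 (chr8:105693851-105693891, plus strand): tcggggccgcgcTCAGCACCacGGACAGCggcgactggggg
Ina (chr19:47016666-47016706, minus strand): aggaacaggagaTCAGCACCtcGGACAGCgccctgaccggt
Phf21b (chr15:84829630-84829670, minus strand): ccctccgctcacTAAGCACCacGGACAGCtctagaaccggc
Xkr6 (chr14:63681672-63681712, plus strand): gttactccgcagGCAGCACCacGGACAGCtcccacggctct
Rbfox3 (chr11:118584987-118585027, minus strand): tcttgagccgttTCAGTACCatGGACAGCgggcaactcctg
Nsf (chr11:103920824-103920864, plus strand): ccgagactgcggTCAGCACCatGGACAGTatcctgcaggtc
Syt7 (chr19:10403270-10403310, plus strand): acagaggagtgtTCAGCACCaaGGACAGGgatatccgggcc

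Of the 51 peaks with RE1, the one in Erich1 had the most alike values in both genotypes, with a fold enrichment of 54.6 in 3xTg and 54.1 in WT. Its element lay in the second intron, 2 bases from the summit. Phf21b, which encodes a PHD-finger protein, had 57.8 in 3xTg and 50.7 in WT, and Xkr6 had 55.4 and 46.3. Rbfox3, the splicing factor known as NeuN, had 51.7 and 41.0. These 4 elements stood in peaks among the 20 of highest fold enrichment in gene bodies, and both lists placed them far above their starting levels.

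Elements without a mismatch were also found across the rest of the range. Myo18b, a myosin gene, had a fold enrichment of 34.3 in 3xTg and 24.9 in WT. Vrk3, a member of the vaccinia-related kinase family, had 30.1 and 16.2. Carmil2, a regulator of actin capping, had 23.4 and 12.4, and Ina, the neuronal intermediate filament internexin, had 23.0 and 11.5. The weaker ones included the noncoding gene Gm16582 (17.6 and 10.4), the noncoding gene Gm27199 (11.4 and 7.75) and Ccdc33 (11.0 and 7.13). A perfect element therefore stood in peaks near the lower end of the list as well as near the top. The remaining 2, chosen after their values were seen, were in the adhesion gene Kirrel3 (9.84 and 7.38) and in Slc8a2, a sodium-calcium exchanger (9.05 and 6.56).

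Few shared gene-body peaks carried RE1. A match was present in 51 of 1003 (5.08%, 95% Wilson interval 3.89 to 6.62%), against 13 of 1002 windows (1.30%, 0.760 to 2.21%) of the same length lying 10 kb downstream of the summits. The matches fell into separate groups: 10 peaks had 0 mismatches and 25 had 1, numbers at which no neighbouring window was found, whereas with exactly 3 mismatches there were 7 peaks and 12 neighbouring windows. From 5 mismatches upward the peaks and the neighbouring windows had similar numbers, as the plot of mismatches shows. The median distance between the summit and the centre of the element was 15.0 bases (n = 51).

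**Figure D1:**
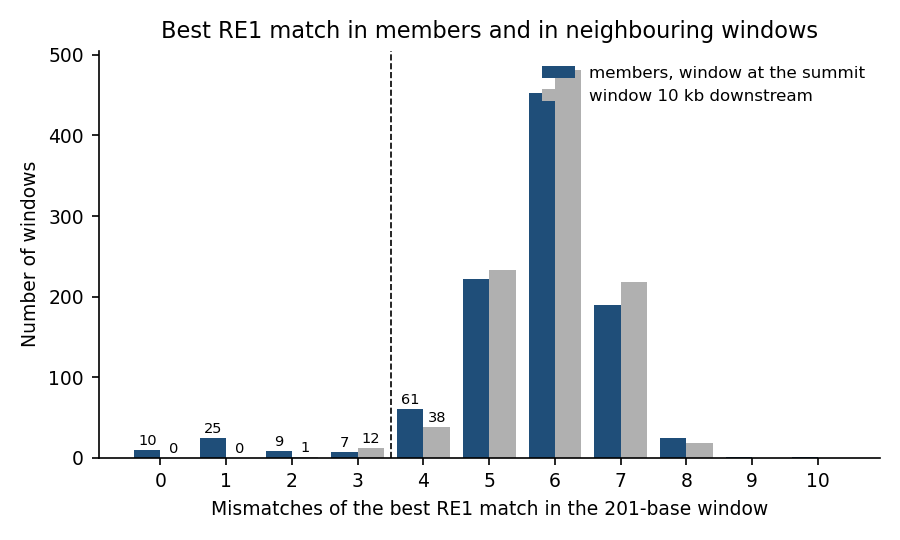
Number of windows (vertical axis) by the mismatches of their best RE1 match (horizontal axis) for the shared gene-body peaks (blue) and for windows 10 kb downstream of the same summits (grey); the dashed line marks the limit of 3 mismatches. With 0 mismatches there were 10 peaks and 0 neighbouring windows, with 1 mismatch 25 and 0, and with 6 mismatches 453 and 481.

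RE1 was less frequent in the shared gene-body peaks than in the other shared peaks and more frequent than in gene-body peaks called in 3xTg alone. It was present in 59 of 680 shared intergenic peaks (8.68%; odds ratio 0.564, adjusted p = 0.00704), in 66 of 806 shared promoter peaks (8.19%; odds ratio 0.601, adjusted p = 0.00920) and in 25 of 1162 gene-body peaks of the 3xTg list alone (2.15%; odds ratio 2.44, adjusted p = 0.00074; two-sided Fisher's exact tests, Benjamini-Hochberg over the 3 comparisons). The tests treat peaks as units and describe these 2 pooled lists, not the animals. Gene-body peaks of the 3xTg list alone were weaker, with a median 3xTg fold enrichment of 9.67 against 13.8 in the members. With a 3xTg value over 10 required in both classes, RE1 was in 5.22% of members and 1.62% of those peaks (adjusted p = 0.00220, Fisher's exact test). Peaks of equal strength were not compared. The difference from intergenic and from promoter peaks did not hold once both values of a peak had to exceed 10, where the shares were 13.0% in gene bodies, 13.8% between genes and 13.7% at promoters (adjusted p = 0.885 for each, Fisher's exact test). With 4 mismatches allowed, the differences from the 3xTg-only peaks (11.2% against 8.78%, adjusted p = 0.106, Fisher's exact tests here and below) and from intergenic peaks (12.6%, adjusted p = 0.356) were lost, and the promoter comparison was also lost with 2 mismatches (adjusted p = 0.274), with 50 bases searched on either side (0.0597) and when the overlap had to cover 50% of each peak (0.530).

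Genes of neuronal excitability and of the synapse were among the hosts of the 51 RE1-bearing peaks. Nsf, the ATPase that takes apart SNARE complexes after vesicle fusion, had a fold enrichment of 29.9 in 3xTg and 20.6 in WT in intron 4. Syt7, a calcium sensor of vesicle release, had 25.6 and 15.8 in its first intron. Cacng2, the AMPA receptor auxiliary subunit stargazin, had 17.0 and 10.4. Celf4, an RNA-binding regulator of splicing, had 36.1 and 31.7. Picked once the values were known were the adhesion gene L1cam (20.4 and 10.8), Crmp1, which acts in semaphorin signalling (15.4 and 11.3), and the pacemaker channel gene Hcn2 (10 and 7.10).

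A preferred orientation was not detectable with 51 elements. They read in the direction of the host gene in 29 of 51 peaks (56.9%, 43.3 to 69.5%; p = 0.401, exact two-sided binomial test against 50%). Windows with RE1 were richer in G and C, at a median of 50.5% of 501 bases against 43.7% without it. Their peaks were also wider in 3xTg, at a median of 1325 bases (n = 51) against 980 (n = 952). The median 3xTg fold enrichment was 17.0 with RE1 and 13.8 without, and the widths were not matched for it.

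In some peaks the left and right parts of RE1 were present but farther apart than the usual spacer, and 3 examples with spacers of 8 or 9 bases, picked after the values were known, are printed with both parts in capitals.
Adgrb3 (chr1:25228757-25228800, minus strand): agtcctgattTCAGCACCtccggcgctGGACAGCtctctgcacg
Grb10 (chr11:12025911-12025953, plus strand): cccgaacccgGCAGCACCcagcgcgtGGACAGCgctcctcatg
Wdr1 (chr5:38532134-38532177, minus strand): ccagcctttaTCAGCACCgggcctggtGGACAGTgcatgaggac

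Such separated parts, with at most 1 mismatch in each, the same order and strand, and any spacer up to 20 bases other than 2, were present in 39 of 1003 shared gene-body peaks (3.89%, 2.86 to 5.27%) and in 10 of 1002 neighbouring windows (0.998%, 0.543 to 1.83%). The spacer was 8 bases in 11 of the pairs, more than for any other length. Adgrb3, an adhesion G-protein-coupled receptor gene, had a fold enrichment of 41.1 in 3xTg and 23.3 in WT. Grb10, an imprinted adaptor gene of insulin signalling, had 19.5 and 14.2, and Wdr1, an actin-disassembly factor, had 17.9 and 9.19. The left part without a mismatch was in 50 peaks (4.99%) and 11 neighbouring windows (1.10%), whereas the right part was in 62 (6.18%) and 51 (5.09%). These counts include peaks that held a full RE1 or separated parts, so they are not counts of parts standing alone.

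Most of the peaks of highest fold enrichment in gene bodies held no RE1. Many of their summits stood in short sequences repeated head to tail. The sequence from 50 bases before to 50 bases after the summit is printed for 7 of the strongest, on the plus strand of mm10, with each ACTAG, or CTAGT on the opposite strand, in capitals; these letters were picked out after the windows had been seen.
Utp4 (chr8:106914089-106914189, plus strand): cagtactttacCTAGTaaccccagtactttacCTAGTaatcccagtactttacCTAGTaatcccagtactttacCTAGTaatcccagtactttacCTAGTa
Opa1 (chr16:29622237-29622337, plus strand): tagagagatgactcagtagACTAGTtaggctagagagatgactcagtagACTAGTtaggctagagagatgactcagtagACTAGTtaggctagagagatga
Zbtb4 (chr11:69772431-69772531, plus strand): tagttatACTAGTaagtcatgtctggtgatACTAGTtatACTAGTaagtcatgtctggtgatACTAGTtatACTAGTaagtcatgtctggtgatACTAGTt
Slc38a9 (chr13:112707739-112707839, plus strand): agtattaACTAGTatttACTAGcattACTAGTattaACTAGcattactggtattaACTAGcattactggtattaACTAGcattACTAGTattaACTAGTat
Kcnk1 (chr8:126023449-126023549, plus strand): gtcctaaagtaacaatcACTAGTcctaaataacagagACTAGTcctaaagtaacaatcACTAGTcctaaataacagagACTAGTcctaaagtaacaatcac
Ntm (chr9:29958395-29958495, plus strand): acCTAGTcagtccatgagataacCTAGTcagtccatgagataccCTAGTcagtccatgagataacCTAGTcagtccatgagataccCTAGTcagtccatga
Robo2 (chr16:74174520-74174620, plus strand): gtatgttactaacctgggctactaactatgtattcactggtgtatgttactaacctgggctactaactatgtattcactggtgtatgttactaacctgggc

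Utp4, which encodes a ribosome biogenesis factor, had the highest fold enrichment of all shared gene-body peaks, 67.0 in 3xTg and 63.0 in WT, in its twelfth intron. Opa1, the mitochondrial fusion GTPase, had 61.5 and 41.6, and Zbtb4, a zinc-finger gene whose product binds methylated DNA, had 59.0 and 46.7. Slc38a9, a lysosomal amino acid transporter, had 59.0 and 50.2. Kcnk1, a potassium channel of the TWIK family, had 55.8 and 35.5, and Ntm, the adhesion molecule neurotrimin, had 52.6 and 31.6. In Utp4 a unit of 21 bases carried CTAGT once and recurred 5 times in the printed window, and in Zbtb4 and Slc38a9 the 5 letters were found 12 times with both strands counted. A site ACTAGT holds the letters on both strands and was counted on each of them, so the sites are fewer than these counts. Robo2, a receptor for Slit guidance cues, had 44.2 and 25.9 and a unit of 41 bases without ACTAG.

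Smad2, an effector of TGF-β signalling, had 65.4 in 3xTg and 51.8 in WT, and the imprinted noncoding gene Rian had 54.7 and 34.4. Both peaks stood in repeated units as well. Celsr3, an adhesion cadherin of axon tract formation, completed the 12 highest with 52.1 and 44.3; its summit was in a coding exon, 1005 bases from a start site, and its best RE1 match had 4 mismatches. Of the 20 highest, chosen after the values were seen, 12 stood in repeated units as defined below and 4 held RE1. Kcnk1 and Helz held 8 and 10 copies of the 5 letters, counted over both strands. The copies in Kcnk1 lay in ACTAGT sites, each counted on both strands, and those in Helz did not. Celsr3 and Add3, an adducin gene (45.9 and 29.1), had none of these.

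Repetition was measured as the highest share of bases in the same window as for RE1 that equalled the base a fixed distance further on, with distances of 10 to 60 bases. A window was called tandem from 75%, and the median over all shared gene-body peaks was 34.2%. Tandem windows made up 66 of 1003 shared gene-body peaks (6.58%, 5.21 to 8.29%), 50 of 680 shared intergenic peaks (7.35%, 5.62 to 9.56%), 32 of 1162 gene-body peaks of the 3xTg list alone (2.75%, 1.96 to 3.86%) and 3 of 806 shared promoter peaks (0.372%, 0.127 to 1.09%). The peaks of the 3xTg list alone were weaker, as given above, and these shares were not matched for fold enrichment. In windows 10 kb downstream of the members there were 4 of 1002 (0.399%). None of the 51 peaks with RE1 had a tandem window. The distance of best agreement had a median of 39.5 bases, and it may span several units.

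A set of 7-letter sequences recurred both inside and outside such repeats. The first, TAACTAG, was within 50 bases of the summit in 14.2% of shared gene-body peaks and in 0.599% of neighbouring windows. The next, TAGTTAG, was in 11.1 and 0.699%, and the last, TAACCAG, in 7.68 and 0.699%. They were chosen after the windows had been compared, so that their shares are given without a test. TAACTAG contains ACTAG, and TAACTAG and TAGTTAG can overlap when read on opposite strands. At least 1 of them was within 50 bases of the summit in 254 of 1003 shared gene-body peaks (25.3%, 22.7 to 28.1%) and in 19 of 1002 neighbouring windows (1.90%, 1.22 to 2.94%). The share was 22.8% in shared intergenic peaks, 18.3% in gene-body peaks of the 3xTg list alone and 10.5% in shared promoter peaks, again without matching for fold enrichment. None of the 51 peaks with RE1 had one, and 30 of the 254 peaks that did were tandem windows. TGANTCA, the element of the AP-1 factors, was in 8.77% of shared gene-body peaks and 3.49% of neighbouring windows.

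**Figure D2:**
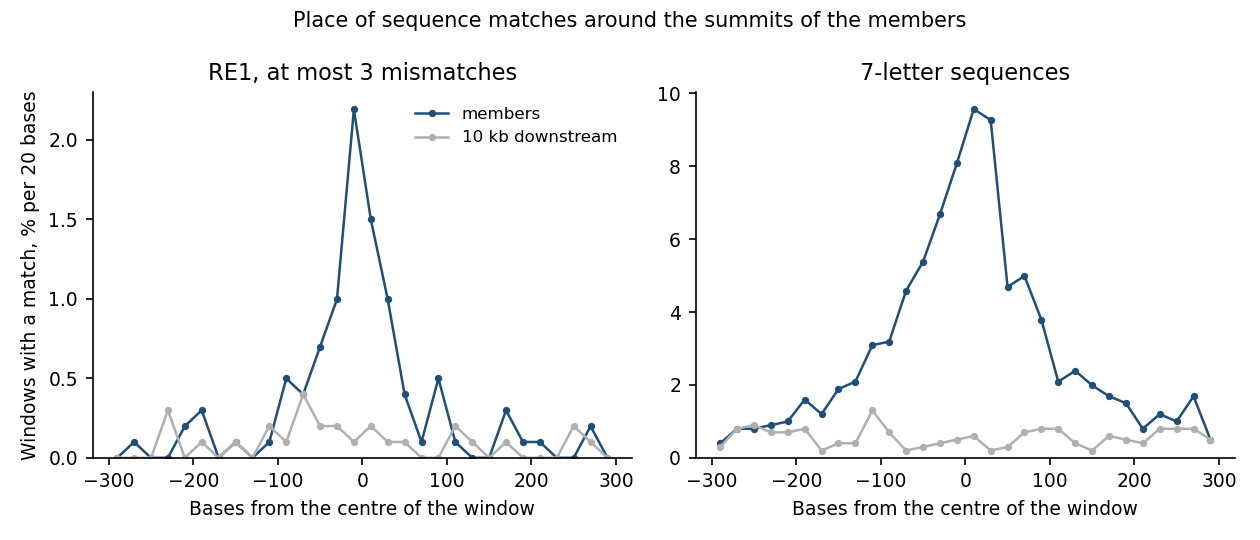
Share of windows with a match centred in each step of 20 bases (vertical axis) by distance from the window centre in bases (horizontal axis), for RE1 (left) and the 7-letter sequences (right), in the shared gene-body peaks (blue) and 10 kb downstream (grey). In the 20 bases up to the summit RE1 was centred in 2.19% of the peaks, and in the 20 bases after it the 7-letter sequences were in 9.57%; the grey lines stood at 0.0998 and 0.599% there.

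The shares with a 7-letter sequence or a tandem window rose with fold enrichment among the members, whereas that with RE1 was higher mainly in the highest quartile. From the lowest to the highest quartile of 3xTg fold enrichment, the 7-letter sequences were in 19.5, 21.9, 26.0 and 33.9% of peaks, and tandem windows in 1.59, 4.78, 7.20 and 12.7%. For RE1 the shares were 3.59, 3.59, 4.00 and 9.16%. Since the repeats and the 7-letter sequences were noticed in strong peaks, their shares by quartile are a description. Outside both sets there were 698 peaks (69.6%) with neither RE1 nor a 7-letter sequence. Tandem windows moved with fold enrichment in this way, and their part in it was not tested. How reads mapped to these repeats and how the inputs covered them cannot be seen in the peak lists, which limits what the fold enrichments of the strongest peaks mean.

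**Figure D3:**
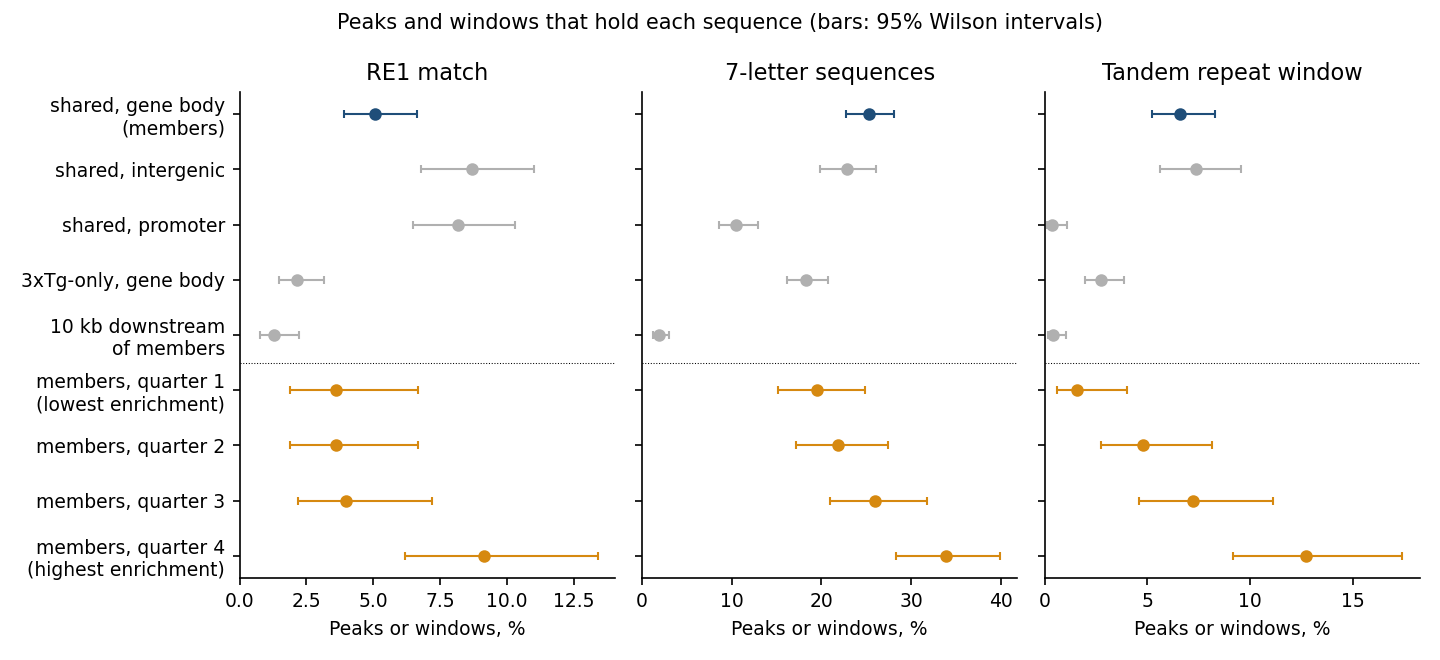
Share of peaks or windows (horizontal axes) that hold RE1, a 7-letter sequence or a tandem window, for the shared gene-body peaks (blue), other peak classes and neighbouring windows (grey), and the members by quartile of 3xTg fold enrichment, drawn as groups 1 to 4 (gold). Points are shares and bars 95% Wilson intervals; the highest quartile has the largest share among the quartiles in each panel, 9.16, 33.9 and 12.7%.

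Within genes, nearly all summits were intronic. The summit lay in an intron in 972 of 1003 peaks (96.9%), in a 3′ UTR in 15 (1.5%), in a coding exon in 9 (0.897%), in an exon of a noncoding transcript in 7 (0.698%), and in no 5′ UTR. Protein-coding transcripts hosted 940 peaks (93.7%). With 3 more peaks that lay in an intron of their host and in an exon of an overlapping noncoding gene, the first intron of the longest transcript held 328 of 975 peaks (33.6%, 30.7 to 36.7%), while the first introns of the same transcripts made up 25.9% of their intron bases. In gene-body peaks of the 3xTg list alone the share was 32.1% (odds ratio 1.07, p = 0.458, two-sided Fisher's exact test). Along the host transcript the summits were spread widely, at a median of 47.6% of the way from start to end, and they lay a median of 49021 bases from the start of the host. From the nearest start site of any gene the median was 26334 bases, and 727 peaks (72.5%) were more than 10 kb away.

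The few exonic peaks included genes of several kinds. After Celsr3, the strongest in coding exons were Ash1l, a histone methyltransferase gene (21.7 in 3xTg and 7.75 in WT), Soga3 (21.0 and 10.6), Insm2, a zinc-finger gene of neuroendocrine cells (19.4 and 10.5), and the keratin gene Krt10 (13.3 and 7.0). Soga3 held RE1 with 3 mismatches. In 3′ UTRs they were Dnajc28 (33.7 and 19.1), the taste receptor gene Tas1r3 (28.9 and 21.4), Vcl, encoding the adhesion protein vinculin (21.2 and 9.46), the ubiquitin ligase gene Ubr1 (17.3 and 6.24) and the transcriptional coactivator gene Sub1 (15.2 and 10.2). Tas1r3 held RE1 with 1 mismatch, and Dnajc28 stood in a tandem window. The coding-exon peaks of Celsr3, Soga3, Insm2 and Krt10 lay 730, 288, 921 and 90 bases from a start site of the GENCODE annotation. Of all members, 10.8% lay within 1 kb of such a start.

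Some of these peaks were near starts that the rule did not use. In all, 127 of 1003 (12.7%) lay within 1 kb of a predicted RefSeq start or a GENCODE start. Just inside the limit of 1 kb were a second peak of Phf21b (1001 bases from a start site; 17.3 in 3xTg and 6.84 in WT) and a peak of Slc1a2, the main glial glutamate transporter (1002 bases; 13.3 and 9.08). Just outside were shared peaks in Alk (995 bases; 12 and 8.19) and 1500004A13Rik (983 bases; 12.4 and 8.13). The smallest overlaps between a 3xTg and a WT peak were 230 bases, in Spop, and 244 bases, in Dmd. In both the narrow WT peak lay wholly inside the 3xTg peak, so the overlap was complete for WT. The nearest peak of the 3xTg list alone, in Btd, was 389 bases from a WT peak and the next, in Ttll5, 637 bases.

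The peaks were hosted by 850 genes, 3.26% of the 26089 annotated genes. One peak was found in 710 of the hosts, 2 peaks in 116 and 3 or more in 24, and 22 peaks lay inside more than 1 gene. Hosts were long, with a median span of 107194 bases against 13498 over all genes. The share of genes that hosted a peak was 0.259% below 10 kb, 13.5% from 100 to 200 kb and 36.5% from 500 kb upward. Per megabase of gene span the density changed far less, from 0.682 in the longest class to 1.2 from 100 to 200 kb. Of the hosts, 70 (8.24%) also had a shared promoter peak, against 3.70% of all genes, and 228 (26.8%) also hosted a gene-body peak of the 3xTg list alone, against 3.68%. These shares were not matched for gene span, so they do not show that the 2 kinds of peak occur together beyond the length of the hosts.

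Dclk1, a microtubule-associated kinase of migrating neurons, hosted 7 peaks, the most of any gene, with fold enrichments of 10 to 19.0 in 3xTg. Tcf4, a basic helix-loop-helix factor, hosted 6 (8.80 to 23.1) and Csmd1, a complement regulator of the synapse, 5 (10.6 to 25.4). Auts2 hosted 4 (8.80 to 14.2), as did Cdk19, a Mediator kinase gene (11.9 to 16.3), Eif4g3, a translation initiation factor gene (17.2 to 23.4), and Lsamp, an IgLON adhesion gene (10.2 to 16.1). None of these peaks carried RE1, against 5.08% of all shared gene-body peaks. At that share few would be found in a set of this size, so the absence does not set these genes apart. The gene spans ran from 135 kb for Cdk19 to 2197 kb for Lsamp.

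Genes of the nervous system were taken from 13 lists, which were drawn up with earlier results of these data known. Together 120 of 697 listed genes (17.2%) hosted 174 of the peaks, against 3.26% of all genes. Genes of most lists are long, so the density per megabase of gene span is given beside each count. By median span the exceptions were neuropeptides (7.41 kb) and glial markers (14.4 kb), beside 13.5 kb over all genes. Over all genes the density was 0.941. The lists of neural RNA-binding and splicing regulators (13 of 44 genes; 2.59 peaks per megabase) and of the neuronal cytoskeleton and axonal transport (14 of 63; 2.97) were above that density. Potassium channels (14 of 61; 1.49), neural lineage transcription factors (11 of 87; 1.78) and synaptic vesicle genes (10 of 68; 1.29) had lower densities than these, as did sodium and calcium channels (6 of 42; 1.05) and genes of inhibitory and other transmission (6 of 46; 1.40). The small lists with 3 hosts each, glial markers (4.55), neuropeptides (2.21) and the REST complex (1.70), had densities that rest on 4, 3 and 3 peaks. In larger lists, some genes held several of the peaks. Dclk1 held 7 of the 23 in cytoskeletal genes, and Tcf4 and Auts2 held 6 and 4 of the 21 in transcription factor genes. Synaptic adhesion genes had the second highest share of hosts (23 of 86, 26.7%) at a density of 0.843, below that of all genes, with a median span of 307 kb. Axon guidance genes (8 of 60; 0.720) and glutamate receptors and postsynaptic scaffolds (6 of 48; 0.626) were also below it.

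**Figure D4:**
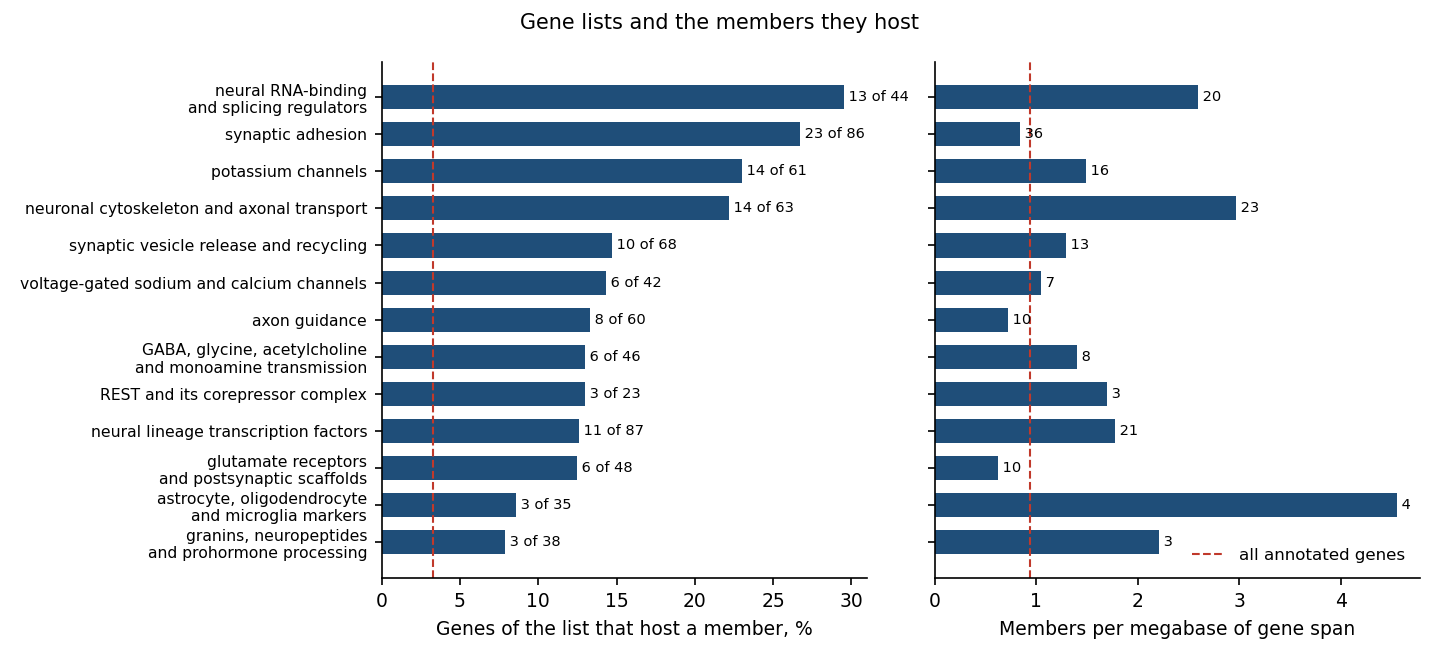
Share of the genes in each list that host a shared gene-body peak (left) and peaks per megabase of gene span (right); bars start at 0, the numbers beside them are hosts of annotated genes and peaks, and the dashed line is the value over all 26089 genes. All 13 lists exceed 3.26% on the left, whereas on the right the adhesion, guidance and glutamate receptor lists lie below 0.941.

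RE1 was present in 2 of the 20 peaks in neural RNA-binding genes and in 2 of the 23 in cytoskeletal genes, beside 5.08% of all members. After Rbfox3, the strongest RNA-binding gene was Celf1, a regulator of splicing and mRNA decay, with 43.8 in 3xTg and 25.7 in WT in a tandem window. Celf4 followed with 36.1 and 31.7 and with RE1. Among cytoskeletal genes the strongest were Dst, encoding the linker protein dystonin (24.2 and 10.6), Ank3, encoding ankyrin G of the axon initial segment (23.6 and 8.62), and Ina, described above, which alone of the 3 had RE1. Mapt, which encodes tau, hosted 1 peak in its first intron, 17786 bases from its start, with 13.0 in 3xTg and 7.28 in WT and without RE1. App, Thy1 and Rest hosted none.

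In channel and receptor genes the strongest peaks were of moderate height apart from Kcnk1 and Grip1. Kcnip1, a potassium channel interacting protein, had 28.0 in 3xTg and 13.4 in WT. Cacna1d, the L-type channel Cav1.3, had 23.4 and 12.5, and Cacna1c, the L-type channel Cav1.2, had 16.5 and 9.37. Grip1, a scaffold of AMPA receptors, had 48.1 and 28.2 in a tandem window. The scaffold gene Dlgap1 had 28.1 and 12.1, and Grin2a, an NMDA receptor subunit, had 25.9 and 12.7, also in a tandem window. Among genes of inhibitory and other transmission, Gabrb1, a GABA-A receptor subunit, had 24.0 and 16.5, and Gabbr2, a GABA-B receptor subunit, had 15.9 and 7.92. In the sodium and calcium channel list RE1 was present in 2 of 7 peaks, those of Cacng2 and Hcn2 described above, and not in the Cacna1c or Cacna1d peaks. It was present in 1 of 16 peaks in potassium channel genes and in none of the 10 and 8 in the receptor lists. The share over all members was 5.08%.

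RE1 was present in 3 of the 36 peaks in adhesion genes, in 2 of the 13 in vesicle genes and in none of the 10 in guidance genes. Over all members the share was 5.08%, and these counts are too small to differ from it. Cntn5, a contactin, had 36.1 in 3xTg and 18.3 in WT in a tandem window, and Csmd3 had 27.1 and 12.9. Robo2 had a second peak with 18.8 and 7.0, and Unc5a, a netrin receptor, had 18.2 and 8.44. Syt1, the calcium sensor of fast release, had 22.3 and 11.0 without RE1, beside Nsf and Syt7 with it. Transcription factor genes were led by Pax5 (30.2 and 16.1), where the summit also lay in an exon of the noncoding gene 5730488B01Rik, followed by Nfib (23.2 and 12.7) and Tcf4 (23.1 and 9.16).

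Lists with few hosts included glia and the REST complex itself. The myelin gene Mbp had 36.5 in 3xTg and 19.2 in WT, Slc1a3, an astrocyte glutamate transporter, had 13.7 and 9.13, and Slc1a2 is given above; these 3 hosts were among 35 glial marker genes. Of 38 genes of neuropeptides and prohormone processing, the hosts were the convertase gene Pcsk2 (18.1 and 7.75), the carboxypeptidase gene Cpe (13.8 and 9.64) and the opioid receptor gene Oprm1 (10.4 and 7.56). Of 23 genes of REST and its corepressors, the hosts were Sin3a (11.6 and 8.70), Prickle1, which takes part in moving REST into the nucleus (11.2 and 7.0), and the chromatin remodeller gene Arid1b (8.75 and 6.29). None of the peaks of these 3 lists had RE1, but the peaks are too few to set them apart from the 5.08% over all members.

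By chromosome, the peaks were spread over all autosomes, with 0.678 to 1.26 per megabase of gene span. Chromosome X had 6 peaks, 0.134 per megabase. It also had few 3xTg peaks in all, 58, of which the 6 were 10.3%, against 15.2 to 29.3% on the autosomes.

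Across the members, fold enrichment was higher in the 3xTg list than in the WT list almost throughout. The median fold enrichment was 13.8 in 3xTg and 7.56 in WT. The 3xTg value was above the WT value in 1000 of 1003 peaks (99.7%), against 99.5% of all shared peaks. It was more than 1.5 times the WT value in 773 members (77.1%), against 73.7% of all 2489 shared peaks; for the opposite direction there was no member, and the share of all shared peaks was 0%. The median ratio was 1.74 in gene bodies, 1.71 between genes and 1.64 at promoters, so that gene-body peaks stood close to the others. The lists began at different levels, replicates were pooled, and ratios of pooled values carry no error; whether genotype or the making of the lists gave this shift cannot be told apart. Across the 1003 peaks the values of both lists had a Spearman correlation of 0.72, given as a description, since both lists were used to choose the peaks.

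**Figure D5:**
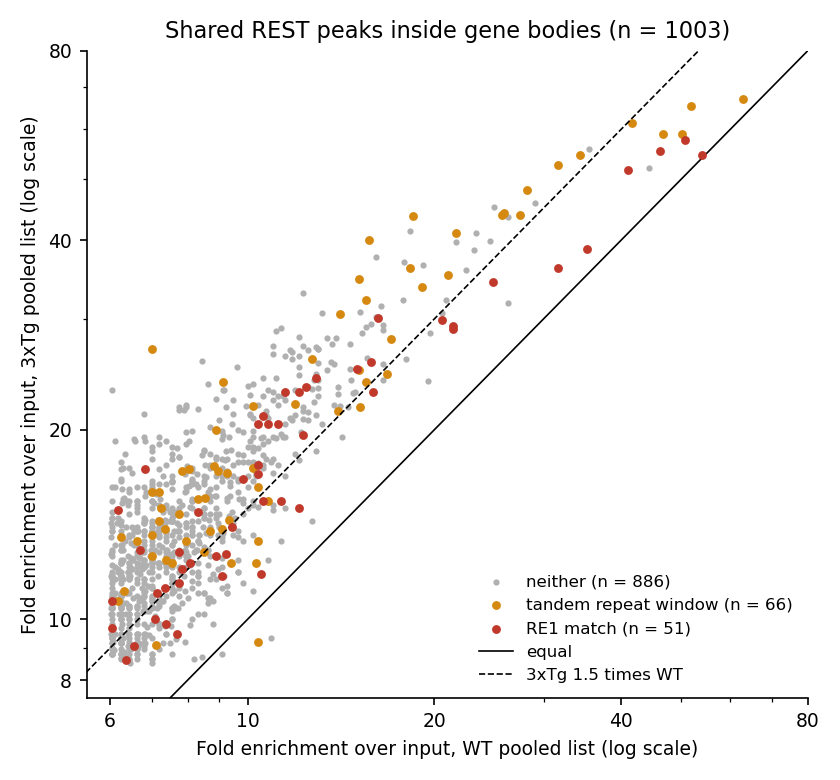
Fold enrichment of the 1003 shared gene-body peaks in the WT list (horizontal axis, log scale) and the 3xTg list (vertical axis, log scale); red points hold RE1, gold points have a tandem window and grey points neither. The solid line marks equal values and the dashed line a 3xTg value 1.5 times the WT value; 1000 points lie above the solid line and 773 above the dashed one, and red points lie nearer the solid line.

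Peaks with RE1 had lower ratios than those without. The median ratio was 1.52 with RE1 (n = 51) and 1.75 without (n = 952), and 26 of 51 (51%) against 747 of 952 (78.5%) exceeded 1.5. In the highest quartile of 3xTg fold enrichment the medians were 1.59 (n = 23) and 1.95 (n = 228), and in the lowest they were 1.41 (n = 9) and 1.47 (n = 242). Over all shared peaks, promoters included, the medians were 1.55 with RE1 (n = 176) and 1.71 without (n = 2313). Tandem windows had a median ratio of 1.72 (n = 66) and the peaks with a 7-letter sequence 1.81 (n = 254).

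The extremes of the ratio lay in peaks without RE1. The largest were in Cttnbp2nl, which encodes a relative of a cortactin-binding protein, with 26.9 in 3xTg and 7.0 in WT (3.85 times, in a tandem window), in Kansl1, a subunit of a histone acetyltransferase complex, with 23.1 and 6.05 (3.82 times), and in Sipa1l1, a postsynaptic GTPase activator, with 19.2 and 6.11 (3.14 times). The 3 peaks that were higher in WT were in Trim30a (9.35 in 3xTg and 10.9 in WT), the splicing gene Usp39 (9.21 and 10.4) and Rbpj, the nuclear effector of Notch (8.80 and 9.08). All of the former have WT values near the start of the WT list or little above it, and all of the latter have 3xTg values near the start of the 3xTg list. In Rbpj the 3xTg summit (base 53588932) lay outside the WT peak (53589248 to 53589732), so its values were taken at different positions.

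Because members had to overlap between the lists, the closeness of their summits is a description. Summits were a median of 32.0 bases apart, within 50 bases in 710 members (70.8%) and within 200 bases in 978 (97.5%). The 3xTg peak was the wider one in 986 members (98.3%), with a median width of 989 bases against 558 in WT. This was not counted in the other shared peaks, so it is not shown to be particular to gene bodies. The lists began at different levels, and the cause of the difference in width was not tested. Windows rich in CpG, with at least 50% G and C and a CpG ratio of at least 0.6 in 501 bases, were rare: 28 of 1003 (2.79%) against 31 of 680 shared intergenic peaks (4.56%; odds ratio 0.601) and 17 of 1162 gene-body peaks of the 3xTg list alone (1.46%; odds ratio 1.93). Neither difference passed the threshold (adjusted p = 0.0589 for both, two-sided Fisher's exact tests). At shared promoters 67.5% of windows were rich in CpG.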

How the data were processed

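ChIP and input DNA from pooled cortices was sequenced in single-end reads and mapped to mm10. The submitters' processing notes name BWA for replicates 1 and 2 and the inputs and STAR 2.7.0a for replicates 3 and 4 of both genotypes; the deposited lists do not say which alignment they rest on. Peaks were called with MACS2, per genotype on pooled replicates, keeping, by the stated filter, those enriched more than 5 times at a q value below 0.01, with blacklisted regions removed; both deposited lists begin well above that filter, at different levels, and whether they were filtered further is not given in the sources used here. This bears on the ratios and on which peaks count as called in 3xTg alone. The deposited lists give each peak's summit offset, its fold enrichment (a ratio over local background) and a −log10 q value; the lowest deposited −log10 q was 29.0 in 3xTg and 13.3 in WT. They hold no read counts, so depth and replicate error are not known here.

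From the lists, overlaps, annotation (curated RefSeq of GRCm38.p6, the mm10 assembly) and sequence matches were computed with Python 3.11.15, pysam 0.24.0 and SciPy 1.17.1. The RE1 search was tested on simulated sequences. Shares carry 95% Wilson intervals over peaks, and classes were compared with Fisher's exact test. The value used for WT was the overlapping peak of highest fold enrichment. Members, gene lists and sequences were chosen with earlier results of these data known.

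Named genes were the 12 members of highest 3xTg fold enrichment, up to 8 with perfect RE1, the 6 genes with most members and ties, the top 3 of each list, the 3 highest and lowest ratios, up to 5 each in coding exons and 3′ UTRs, the nearest to each limit, and App, Mapt, Thy1 and Rest; some genes that the rule names are not reported here. Alternatives to these settings are given in the closing section.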

Additional observations from a re-analysis of the deposited data

How the results depend on the processing

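The number of shared gene-body peaks was 688 to 1003 under the other overlaps, start distances, annotations and q limits, and 223 where both fold enrichments exceeded 10. The share with RE1 moved to 11.2% with 4 mismatches allowed, 8.08% over the whole peak and 13.0% where both values exceeded 10. Against shared intergenic peaks the odds ratio for RE1 was 0.868 with 4 mismatches and 0.931 with a fold enrichment over 10, no longer past the threshold. Against shared promoter peaks it was 0.776 with 2 mismatches, 0.667 within 50 bases, 0.939 with a fold enrichment over 10 and 0.846 with an overlap of at least 50%, and against gene-body peaks of the 3xTg list alone 1.31 with 4 mismatches. The share in the first intron was 39.0% when any transcript counted. Members above a ratio of 2 numbered 236 (23.5%), close to the 20.6% of all 2489 shared peaks. There were 214 genes that hosted a peak where both values exceeded 10. The stricter limits keep fewer peaks by construction, and the cause of the other shifts was not tested. No tested direction reversed. After the data were seen, the 7-letter sequences were also searched within 25 bases (15.9%) and 100 bases (32.6%), and tandem windows were called from 60% (8.08%), from 90% (4.49%) and within 50 bases (8.28%). No paired analysis was possible because each list pools the replicates of a genotype, and leaving out a replicate was not possible either. Depth is not given in the lists, so that absence of a peak in WT cannot be read as absence of binding.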
